A study of Mus musculus with 24 samples.

Results

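Stromal cells of the mouse small intestine that were negative for an Rspo3 GFP transgene were compared by whether they carried CD31 on their surface. RNA-seq libraries had been made from 3 samples of CD31+ Rspo3- cells and 3 samples of CD31- Rspo3- cells. These 6 of the 24 libraries of the series were taken by their labels and by the tissue and gate marks in the column names of the gene table. All samples came from mice of C57Bl6 background aged 8 to 12 weeks that carried the GFP transgene, and all sorted cells were Epcam negative and CD45 negative. Epithelial cells and leukocytes were thus meant to be absent from both groups. The other 18 libraries are the Rspo3+ cells of both CD31 gates in small intestine and the 4 gates in colon. The labels give no further detail of the transgene. As they do not tie each library to its own mouse, a p-value here speaks only to the scatter among libraries, part of which could be technical.

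CD31 is an adhesion protein of endothelial cells, the cells that line blood and lymphatic vessels. In the intestinal wall these vessels run beside fibroblasts, smooth muscle, pericytes, glia and other stromal cells, and together they feed the epithelium, absorb its products and supply it with matrix, BMP and Wnt signals. Endothelial cells are held together by junctions of VE-cadherin and claudin 5, respond to VEGF and angiopoietins through receptor kinases, divide into arterial, capillary, venous and lymphatic types, and owe their gene programme to transcription factors of the ETS, SOX and GATA families. Fibroblasts are known for fibrillar collagens and, in the gut, for BMP, Wnt and R-spondin ligands that act on the crypts.

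Of 19050 genes tested, 3823 were higher in the CD31+ libraries, which is 20.1% of those tested, and 4109 were lower, which is 21.6%. A call means a Benjamini-Hochberg adjusted p under 0.05 in edgeR's quasi-likelihood test, fitted to all 24 libraries, and all adjusted p values below come from that test unless another is named. Levels are given as CPM, a gene's count scaled to a common library size, for the 3 libraries of each group in the same order throughout. Where 2 sets of 3 values are joined by "against", the CD31+ libraries come first. Fold changes are log2(CD31+ / CD31-) with their standard error (SE). Over all genes tested their median was -0.03. The libraries of these groups held 10380378 to 26830199 estimated counts, within the 8462041 to 29214487 of the whole series. The mitochondrial share was 0.658% to 1.59% in the CD31+ libraries and 2.67% to 4.82% in the CD31- libraries. In bulk libraries, fewer cells of a type and less RNA per cell cannot be told apart.

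The genes that define the gates were read first. Pecam1, which encodes CD31 (GRCm38 chr11:106654217-106750628, - strand), stood at 1229, 1091 and 1078 CPM in the CD31+ libraries and 10.7, 16.3 and 13.0 CPM in the CD31- libraries (log2 fold change 6.41 ± 0.40 SE, adjusted p = 3.18e-10). The groups did not overlap, and the CD31- libraries held little but not zero Pecam1 RNA. Rspo3, which encodes R-spondin 3 and whose transgene was used to exclude cells, stood at 24.1, 15.3 and 21.5 CPM in the CD31+ libraries and 16.5, 16.4 and 13.1 CPM in the CD31- libraries. These ranges overlap and the difference did not pass the test (log2 fold change 0.40 ± 0.22 SE, adjusted p = 0.155). Rspo3+ gates of the same tissue stood at 385 ± 75.1 CPM for CD31+ and 311 ± 32.8 CPM for CD31- cells (mean ± SD, n = 3). Grem1, a secreted BMP antagonist of crypt-base stroma, stood at 3.25, 3.04 and 2.84 CPM in the CD31+ libraries and 56.0, 47.2 and 40.0 CPM in the CD31- libraries (log2 fold change -3.96 ± 0.74 SE, adjusted p = 0.000239).

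Lists of genes that mark the cell types of the intestinal wall separated the groups by type. All 20 of 20 pan-endothelial genes were higher in the CD31+ libraries, with a median log2 fold change of 8.73. In all 20 the CD31+ libraries lay wholly above the CD31- libraries (over all genes, 23.2% had this and 27.5% had the reverse). The summed level of the 20 genes was 8548 to 10830 CPM in the CD31+ and 85.46 to 101.4 CPM in the CD31- libraries. Of 14 pan-fibroblast genes, 13 were lower in the CD31+ libraries and none higher, with a median of -3.97. Their summed level in the CD31+ libraries was 6.66% of that in the CD31- libraries. Enteric glia (10 of 11 lower, median -2.82), enteric neurons (6 of 10 lower, median -3.23) and mesothelium (3 of 6 lower, median -3.49) had no gene higher. Without the first, the second or the third CD31+ library 2, 2 and 3 enteric neuron genes were lower, and without the third 1 mesothelial gene was. These reduced counts lay near the share over all genes in the fit to all libraries (21.6% lower). Genes of interstitial cells of Cajal, the pacemaker cells of gut muscle, were divided (2 of 6 higher, 3 lower). Platelet genes (1 of 3 tested higher) and erythroid genes (1 of 5 tested higher) were few and low. No platelet gene was higher without the third CD31+, the second CD31- or the third CD31- library, and no erythroid gene without the second CD31+, the first CD31- or the third CD31- library.

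The gates did not remove every other cell type's RNA, and the remainder was unequal. Of 16 epithelial genes 11 were lower in the CD31+ libraries and none higher (median -4.03). Their summed level was 703.2 to 1347 CPM against 13270 to 25080 CPM in the CD31- libraries, although both groups had been sorted as Epcam negative. The transcript of Epcam itself stood at 24.1, 39.4 and 65.6 CPM against 594, 686 and 1069 CPM (log2 fold change -4.19 ± 1.05 SE, adjusted p = 0.00332). The third CD31- library had the highest level for 10 of the 11 epithelial genes that passed. Of 15 tested leukocyte genes 1, the integrin gene Itgam, was lower (0.472, 0.277 and 0.517 CPM against 2.11, 5.04 and 4.92 CPM) and none was higher. Itgam did not pass without any 1 of the 6 libraries other than the first CD31- library (adjusted p = 0.052 to 0.0792). The summed level of the leukocyte list was 2373 to 4409 CPM against 1879 to 2774 CPM. Most of it came from the antibody chains Igkc (2155, 3174 and 1756 CPM against 2068, 1349.6 and 1575 CPM) and Jchain (633, 1114 and 559 CPM against 639, 439 and 451 CPM). The CD45 gene Ptprc stood at 2.30, 4.71 and 5.0 CPM against 5.16, 6.94 and 3.95 CPM. Mural cell genes were shared between the gates, as described with their genes further on.

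**Figure D1:**
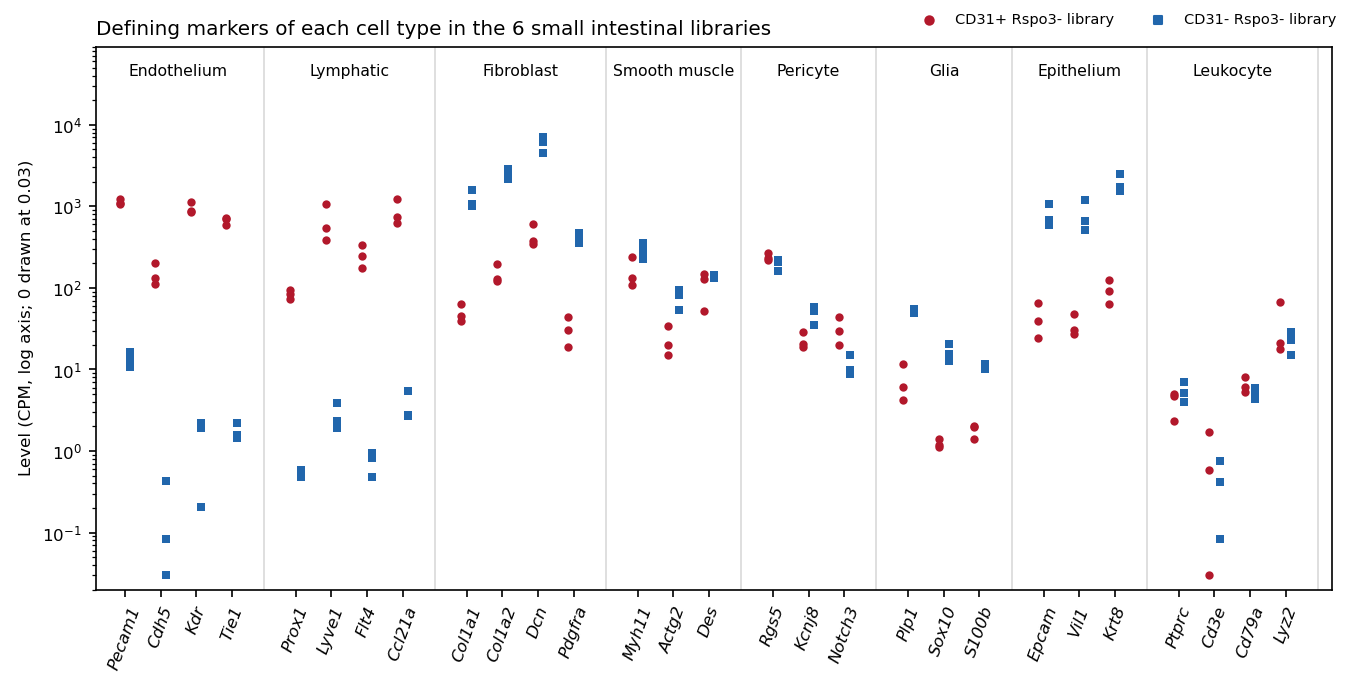
Level of defining marker genes of 8 cell types, on a log10 axis of CPM with 0 drawn at 0.03, for the 3 CD31+ (red circles) and 3 CD31- (blue squares) Rspo3- libraries of the small intestine. Each point is 1 library. Endothelial and lymphatic markers lay higher in every CD31+ library, and fibroblast, glial and epithelial markers lay higher in every CD31- library. The leukocyte gene Ptprc overlapped. The pericyte gene Rgs5 lay slightly higher in every CD31+ library without passing the test. Of the other pericyte genes drawn, Kcnj8 passed as lower in the CD31+ libraries (log2 fold change -1.09) and Notch3 did not pass.

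The core endothelial genes are those that build the endothelial junction, sense VEGF and angiopoietin, or mark the cell surface. Cdh5, which encodes VE-cadherin (GRCm38 chr8:104101625-104144511, + strand), stood at 200.2, 113 and 134 CPM in the CD31+ libraries and 0, 0.0826 and 0.432 CPM in the CD31- libraries (log2 fold change 9.83 ± 0.74 SE, adjusted p = 4.07e-09). Cldn5, the tight junction claudin of endothelium, stood at 361, 242 and 409 CPM in the CD31+ libraries and 0.277, 0.248 and 0.270 CPM in the CD31- libraries (log2 fold change 10.26 ± 0.75 SE, adjusted p = 2.77e-09). No CD31- library reached 1 CPM for either junction gene. Emcn, a sialomucin of capillary and venous surfaces, stood at 527, 333 and 566 CPM in the CD31+ libraries and 0.346, 0.661 and 0.811 CPM in the CD31- libraries (log2 fold change 9.66 ± 0.71 SE, adjusted p = 2.71e-09). Myct1, an endothelial membrane protein gene, stood at 137, 100.2 and 132 CPM in the CD31+ libraries and had no count in the 3 CD31- libraries. It was at least 2443-fold higher, taking 3 counts in the group as the floor (adjusted p = 1.98e-10). Among non-overlapping genes at 10 CPM or more in the CD31+ libraries, Myct1 was one of the 10 with the largest fitted rise, together with the lymphatic peptide gene Nts, the capillary lipase anchor Gpihbp1, the prion-like gene Prnd, the arterial kinase gene Bmx, Scgb3a1, Upk3bl, Sox18, the selectin gene Sele and Gkn3. Most of these had few or no counts in the CD31- libraries, so their order rests on the fit.

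The 10 higher genes with the smallest adjusted p had log2 fold changes of 3.53 to 7.55 and were tight between libraries. Tm4sf1, a tetraspanin-like protein of endothelial membranes, led them at 1333, 1058 and 1247 CPM against 26.9, 27.5 and 23.5 CPM (log2 fold change 5.55 ± 0.19 SE, adjusted p = 2.23e-13). Clec14a, a C-type lectin of endothelium, stood at 261, 232 and 227 CPM against 1.77, 0.992 and 0.919 CPM (log2 fold change 7.55 ± 0.31 SE, adjusted p = 3.41e-12). Ehd4, an endocytic recycling protein gene, stood at 715, 683 and 579 CPM against 30.2, 32.7 and 36.3 CPM (log2 fold change 4.32 ± 0.18 SE, adjusted p = 3.89e-12). The other 7 genes of this set were the caveolar genes Cavin2 and Cav2, the junction gene Jcad, the actin regulator Swap70, Tmem88, the immune-inhibitory ligand Cd200 and the phosphatase gene Ppm1f. In each the CD31+ libraries lay above the CD31- libraries.

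ETS transcription factors bind a GGAA core and are long known at endothelial promoters. Promoters of core endothelial genes are shown as examples with and without the longer motifs AGGAAG and CGGAAG, which hold this core. A promoter without these motifs can still hold the core, as the printed Kdr and Tie1 bases do. The bases are the 150 before the RefSeq start site (GRCm38.p6), printed 5′ to 3′ on the gene's strand, and capitals mark AGGAAG or CGGAAG on either strand (CTTCCT or CTTCCG in the printed strand). Of 20 pan-endothelial genes 11 had a window in the table, and 5 of the 11 held such letters in the printed bases of at least 1 start site (Emcn, Robo4, Egfl7, Erg and Eng). Emcn (chr3:137340928-137341077, + strand) starts its match at -93 from the start site, Robo4 (chr9:37401822-37401971, + strand) at -49, Egfl7 (chr2:26580933-26581082, + strand) at -89 and -49 and Erg (chr16:95459349-95459498, - strand) at -40, whereas Kdr (chr5:75978456-75978605, - strand) and Tie1 (chr4:118489850-118489999, - strand) hold none in this stretch. The other 2 Erg start sites in the table hold none in their 150 bases, and of the other 2 Egfl7 start sites 1 holds a match. Pecam1, Cdh5, Col1a1 and Dcn had no entry.
Emcn: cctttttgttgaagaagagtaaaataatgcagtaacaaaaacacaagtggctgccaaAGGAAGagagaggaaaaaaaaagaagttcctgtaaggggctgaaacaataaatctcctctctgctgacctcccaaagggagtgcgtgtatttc
Robo4: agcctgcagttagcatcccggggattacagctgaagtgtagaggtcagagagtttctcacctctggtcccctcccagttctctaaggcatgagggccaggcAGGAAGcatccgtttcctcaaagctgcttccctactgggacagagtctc
Egfl7: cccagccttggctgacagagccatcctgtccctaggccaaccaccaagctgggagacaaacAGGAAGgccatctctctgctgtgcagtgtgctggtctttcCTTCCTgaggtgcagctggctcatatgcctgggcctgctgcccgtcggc
Erg: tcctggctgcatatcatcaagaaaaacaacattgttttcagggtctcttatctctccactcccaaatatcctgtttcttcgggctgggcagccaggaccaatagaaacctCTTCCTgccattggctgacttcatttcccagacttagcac
Kdr: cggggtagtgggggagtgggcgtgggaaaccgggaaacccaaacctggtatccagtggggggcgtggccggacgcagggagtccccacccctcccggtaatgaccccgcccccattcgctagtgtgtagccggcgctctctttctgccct
Tie1: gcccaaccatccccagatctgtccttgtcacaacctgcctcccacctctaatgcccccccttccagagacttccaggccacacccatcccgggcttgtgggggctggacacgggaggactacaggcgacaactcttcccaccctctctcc
In the 150 printed bases alone, either motif was found in 28.0% of 32851 promoter windows in all, in 40.0% of the 15 windows of pan-endothelial genes and in 41.7% of the 12 windows of fibrillar matrix genes. Over the whole window of 250 bases before to 50 after the start, these shares were 46.5%, 53.3% and 66.7%. Fibrillar matrix genes were mostly lower in the CD31+ libraries. The letters were thus present at promoters of genes on both sides of the comparison. Genes printed with and without a match were both abundant in the CD31+ libraries. Robo4, a guidance receptor of vessels, stood at 503, 309 and 438 CPM against 0.277, 0 and 0.595 CPM. Egfl7, a secreted vascular matrix protein gene, stood at 813, 681 and 867 CPM against 0.519, 1.74 and 2.87 CPM. Tie1, an orphan receptor kinase of the angiopoietin system, stood at 716, 586 and 696 CPM against 1.45, 1.57 and 2.22 CPM. Kdr, the main VEGF receptor, stood at 1128, 879.7 and 861 CPM against 0.208, 1.90 and 2.22 CPM. Robo4 and Egfl7 hold a match in the printed bases, and Tie1 and Kdr do not.

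Transcription factors of endothelial cells were higher as a group: 21 of 22 passed the test upward and none downward (median 4.73). Sox18, a SOX factor of vessel and lymphatic development, stood at 298, 155 and 387 CPM against 0, 0 and 0.270 CPM. Its relative Sox7 stood at 249, 349 and 319 CPM against 0.277, 0 and 0.162 CPM. Sox17, their arterial relative, stood at 394, 362 and 342 CPM against 0.104, 0.496 and 0.595 CPM (log2 fold change 9.98 ± 0.80 SE, adjusted p = 1.02e-08). No CD31- library reached 1 CPM for these SOX genes. The ETS factor Erg stood at 45.1, 27.9 and 30.2 CPM against 0.554, 0.496 and 0.0541 CPM. Its family member Fli1 stood at 162, 146 and 164 CPM against 8.79, 11.2 and 8.97 CPM. Elk3 stood at 338, 238 and 355 CPM against 19.3, 18.8 and 14.5 CPM. For all 3 every CD31+ library lay above every CD31- library. Tal1, a helix-loop-helix factor of blood and endothelium, had 10.4, 7.47 and 11.6 CPM in the CD31+ libraries and no count in the CD31- libraries, and was at least 195-fold higher (adjusted p = 2.71e-06). The exception was Ets2, with 287, 149 and 279 CPM against 130.3, 129.6 and 237 CPM and overlapping libraries (log2 fold change 0.52 ± 0.22 SE, adjusted p = 0.0678). Ets2 passed without the second CD31+ or the third CD31- library (adjusted p = 0.00691 and 0.00346). Klf2, a flow-responsive factor, was abundant in both gates and stood at 1768, 1263 and 1181 CPM against 363, 207 and 149.9 CPM (log2 fold change 2.55 ± 0.35 SE, adjusted p = 1.03e-05).

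Among 21 tested transcription factors of mesenchyme 12 were lower in the CD31+ libraries and 2, Meis2 and Zeb1, were higher (median -2.22). Tcf21, a helix-loop-helix factor of fibroblasts, stood at 28.9, 23.7 and 32.0 CPM against 428, 292 and 392 CPM (log2 fold change -3.72 ± 0.37 SE, adjusted p = 1.38e-07). The Hedgehog effectors Gli1, Gli2 and Gli3 had log2 fold changes of -3.45, -4.12 and -3.83, and all 3 passed. Some factors of the gut wall did not pass. Foxf1, a forkhead factor of visceral mesoderm, stood at 108, 194 and 109 CPM against 162, 211 and 119.7 CPM (log2 fold change -0.26 ± 0.31 SE, adjusted p = 0.543). Nkx2-3, a homeobox factor of gut mesenchyme and gut endothelium, stood at 392, 319 and 443 CPM against 321, 288 and 238 CPM (log2 fold change 0.45 ± 0.18 SE, adjusted p = 0.0502). Nkx2-3 passed without the second CD31+ or the first CD31- library (adjusted p = 0.0372 and 0.04). Zeb1, a repressor known from epithelial-mesenchymal transition, stood at 40.4, 54.3 and 34.1 CPM against 18.2, 14.5 and 15.5 CPM (log2 fold change 1.41 ± 0.23 SE, adjusted p = 7.13e-05). Its relative Zeb2 was lower, at 52.1, 29.5 and 36.7 CPM against 171, 94.0 and 106 CPM (log2 fold change -1.65 ± 0.34 SE, adjusted p = 0.000605).

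Genes of all vessel types were higher in the CD31+ libraries: 14 of 15 capillary, 14 of 14 arterial, 9 of 12 venous and 13 of 15 lymphatic genes, with medians of 6.11, 4.74, 5.09 and 7.26. Among capillary genes Plvap, which forms the diaphragms of fenestrated capillaries, stood at 8481, 11371 and 7944 CPM against 40.5, 88.4 and 48.5 CPM (log2 fold change 7.29 ± 0.53 SE, adjusted p = 2.38e-09). Gpihbp1, which holds lipoprotein lipase on the capillary wall, stood at 180.1, 221 and 283 CPM in the CD31+ libraries and had 1 count in all in the CD31- libraries (adjusted p = 2.63e-10). The capillary gene that did not pass was Car4, a carbonic anhydrase, with 122, 125 and 115 CPM against 47.2, 77.5 and 75.0 CPM (adjusted p = 0.184). The arterial connexin gene Gja5 stood at 193, 413 and 153 CPM against 0.761, 0.909 and 0.919 CPM (log2 fold change 8.20 ± 0.70 SE, adjusted p = 2.12e-08). Hey1, a Notch target, stood at 196, 166 and 189 CPM against 3.15, 4.63 and 2.87 CPM (log2 fold change 5.71 ± 0.34 SE, adjusted p = 1.98e-10). The second CD31+ library was well above the other CD31+ libraries for Gja5 and for Jag1 (194, 355 and 134 CPM).

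Venous genes were far apart between the gates and also varied among the CD31+ libraries. Selp, the P-selectin that venules display to leukocytes, stood at 664, 1710.0 and 815 CPM against 0, 1.98 and 2.00 CPM (log2 fold change 9.76 ± 1.20 SE, adjusted p = 2.31e-06). Ackr1, a chemokine-binding receptor of venules, stood at 359, 963 and 338 CPM against 0.588, 1.90 and 0.270 CPM (log2 fold change 9.38 ± 0.94 SE, adjusted p = 1.69e-07). Lrg1, a secreted venous glycoprotein gene, stood at 535, 1139 and 598 CPM against 0.242, 1.24 and 0.973 CPM (log2 fold change 9.98 ± 0.70 SE, adjusted p = 1.71e-09). The second CD31+ library held the highest value in 6 of the 9 venous genes that passed. Il1r1, the interleukin-1 receptor, had overlapping libraries with 112, 115 and 102 CPM against 112, 108 and 103 CPM (log2 fold change 0.02 ± 0.24 SE, adjusted p = 0.952). Neither the adhesion gene Vcam1 nor the peptidase gene Cpe passed.

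Lymphatic transcripts were present in the CD31+ libraries beside those of blood vessels. Prox1, the transcription factor that specifies lymphatic identity, stood at 72.5, 84.6 and 94.0 CPM against 0.554, 0.578 and 0.486 CPM (log2 fold change 7.26 ± 0.52 SE, adjusted p = 2.06e-09). Lyve1, a hyaluronan receptor, stood at 548, 392 and 1073 CPM against 1.94, 2.31 and 3.89 CPM (log2 fold change 7.95 ± 0.64 SE, adjusted p = 9.89e-09). The chemokine gene Ccl21a, which draws dendritic cells to lymphatics, stood at 618, 741 and 1245 CPM against 5.47, 2.73 and 2.70 CPM (log2 fold change 7.87 ± 0.48 SE, adjusted p = 2.62e-10). Mmrn1, a matrix multimerin gene, reached 1446, 3731 and 2965 CPM in the CD31+ libraries against 1.83, 0.744 and 2.27 CPM. Nts, the neurotensin gene, had 57.1, 112 and 94.7 CPM against no count in the CD31- libraries (at least 1742-fold higher). The third CD31+ library held the highest value in 9 of the 13 lymphatic genes that passed. Pdpn, podoplanin, which marks lymphatic endothelium and also fibroblasts, was lower in the CD31+ libraries at 13.1, 18.7 and 17.1 CPM against 57.3, 47.5 and 34.4 CPM (log2 fold change -1.51 ± 0.35 SE, adjusted p = 0.00191). Itga9, an integrin gene of lymphatic valves, overlapped between the groups at 54.6, 31.0 and 61.8 CPM against 40.8, 25.3 and 25.9 CPM (log2 fold change 0.68 ± 0.25 SE, adjusted p = 0.0344). Itga9 did not pass without the first or the third CD31+ or the second or the third CD31- library (adjusted p = 0.116 to 0.213). The claudin gene Cldn11 did not pass. Cldn11 passed without the first CD31- library (adjusted p = 0.0446).

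**Figure D2:**
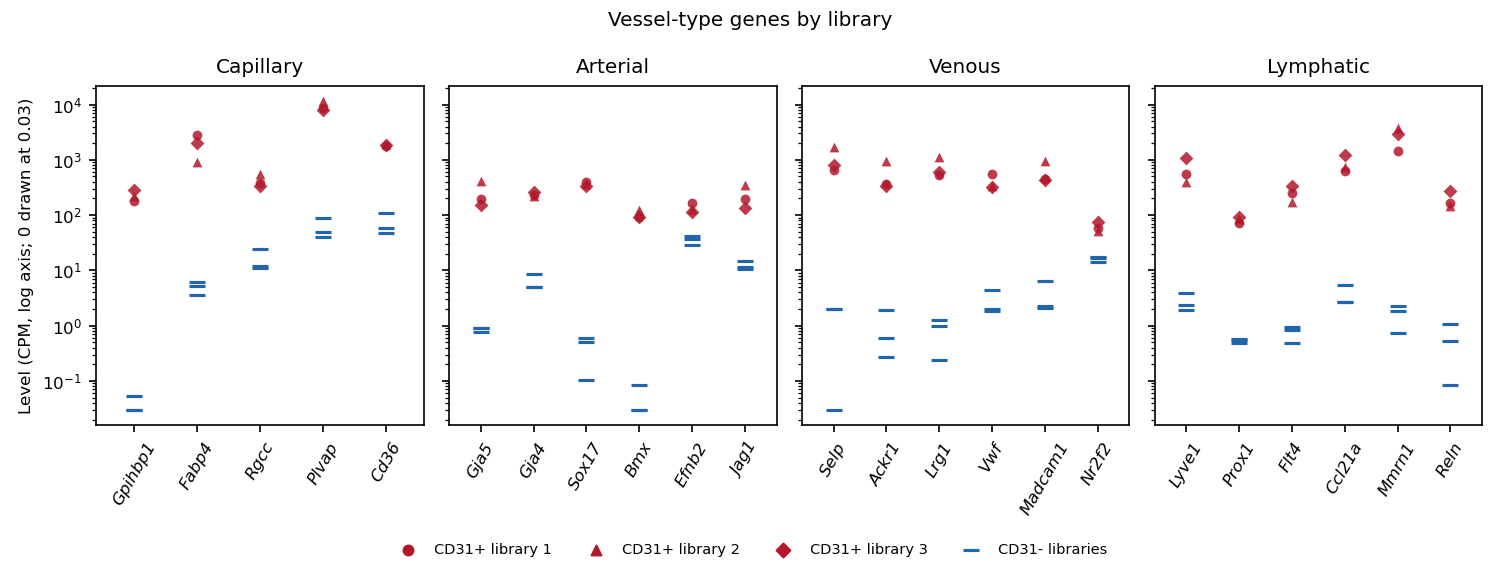
Level of capillary, arterial, venous and lymphatic genes, on a log10 axis of CPM with 0 drawn at 0.03, in each of the 3 CD31+ (red symbols, 1 shape per library) and 3 CD31- (blue bars) Rspo3- libraries of the small intestine. The groups are apart for every gene drawn, the second CD31+ library leads the venous genes Selp and Ackr1, and the third leads the lymphatic genes Lyve1 and Ccl21a.

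Of 16 tested genes of the VEGF and angiopoietin system 10 were higher in the CD31+ libraries and 2 lower (median 2.18). Without the first or second CD31+ or the second CD31- library 1 was lower. Kdr, Flt1 and Flt4, the 3 VEGF receptor kinases, had log2 fold changes of 9.45 (adjusted p = 5e-07), 9.36 (adjusted p = 5.63e-09) and 8.37 (adjusted p = 4.41e-08). Tek, the angiopoietin receptor, stood at 602, 618 and 485 CPM against 13.0, 3.8 and 9.19 CPM (log2 fold change 6.01 ± 0.36 SE, adjusted p = 2.01e-10). Vegfa, the main ligand of Kdr, stood at 54.1, 63.0 and 58.9 CPM against 76.3, 66.1 and 101 CPM, and the difference did not pass (log2 fold change -0.47 ± 0.29 SE, adjusted p = 0.217). Vegfc, the lymphatic growth factor, was higher in the CD31+ libraries at 119.6, 99.5 and 104 CPM against 25.2, 22.9 and 18.1 CPM (log2 fold change 2.29 ± 0.37 SE, adjusted p = 5.5e-05). Its relative Vegfd was lower, at 1.89, 1.04 and 1.21 CPM against 4.46, 3.39 and 5.73 CPM (log2 fold change -1.71 ± 0.35 SE, adjusted p = 0.00067). Angpt2, a context-dependent Tek ligand made by endothelium, stood at 51.8, 68.2 and 65.5 CPM against 9.28, 6.20 and 5.51 CPM (log2 fold change 3.13 ± 0.31 SE, adjusted p = 1.38e-07). Angpt1, its counterpart made by perivascular cells, stood at 13.0, 18.5 and 13.0 CPM against 13.9, 6.11 and 6.43 CPM (log2 fold change 0.74 ± 0.32 SE, adjusted p = 0.0684). Angpt1 passed without the first CD31- library (adjusted p = 0.00504).

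The Notch pathway divides arteries from veins, and 9 of its 13 tested genes were higher and 1 lower (median 3.46). Dll4, the ligand of arterial and sprouting cells, stood at 313, 252 and 338 CPM against 2.98, 2.48 and 3.62 CPM (log2 fold change 6.63 ± 0.63 SE, adjusted p = 8.07e-08). Notch4, an endothelial receptor, stood at 152, 74.3 and 136 CPM against 1.00, 1.32 and 1.68 CPM (log2 fold change 6.51 ± 0.41 SE, adjusted p = 4.66e-10). Notch1 stood at 163, 81.0 and 106 CPM against 14.8, 6.28 and 10.4 CPM (log2 fold change 3.46 ± 0.41 SE, adjusted p = 1.43e-06). The receptor Notch2 was lower, at 5.61, 2.35 and 5.69 CPM against 18.6, 8.84 and 12.2 CPM (log2 fold change -1.54 ± 0.47 SE, adjusted p = 0.0132). Notch2 did not pass without the second CD31+ or the first CD31- library (adjusted p = 0.0593 and 0.0725). The mural receptor Notch3 did not pass (44.6, 19.8 and 29.3 CPM against 15.2, 8.84 and 9.84 CPM, adjusted p = 0.0777). In the PDGF system the ligand Pdgfb, by which vessels recruit pericytes, was higher at 88.5, 40.8 and 73.2 CPM against 3.50, 2.73 and 2.87 CPM (log2 fold change 4.47 ± 0.56 SE, adjusted p = 3.03e-06). Its receptor Pdgfrb was lower, at 98.7, 30.1 and 87.6 CPM against 172, 146 and 148 CPM (log2 fold change -1.10 ± 0.43 SE, adjusted p = 0.0479). Pdgfrb did not pass without the second CD31+ or the first, the second or the third CD31- library (adjusted p = 0.0636 to 0.168). The fibroblast receptor Pdgfra stood at 30.8, 43.8 and 19.0 CPM against 467, 428 and 352 CPM (log2 fold change -3.73 ± 0.66 SE, adjusted p = 0.000153).

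Mural cell genes were found in both gates. Of 12 smooth muscle genes 8 were lower in the CD31+ libraries and 1, Smtn, was higher (median -1.11). Their summed level in the CD31+ libraries was 54.2% of that in the CD31- libraries. Acta2, smooth muscle actin, stood at 542, 234 and 349.7 CPM against 988, 608 and 740.0 CPM (log2 fold change -1.05 ± 0.32 SE, adjusted p = 0.0123). Acta2 did not pass without the second CD31+ or the first CD31- library (adjusted p = 0.0571 and 0.0658). The 10 pericyte genes were divided, 3 higher and 4 lower (median 0.88). As a sum they reached in the CD31+ libraries 90.2% of that in the CD31- libraries. Rgs5, a G-protein regulator of pericytes, stood at 265, 223 and 236 CPM against 218, 207 and 163 CPM and did not pass (adjusted p = 0.442). The channel genes Kcnj8 and Abcc9 were lower (log2 fold changes -1.09 and -1.35), and Vtn, Cox4i2 and Ndufa4l2 were higher (2.62, 2.47 and 1.95). The pericyte gene Cspg4 stood at 24.2, 6.92 and 11.2 CPM against 96.6, 56.4 and 72.2 CPM (log2 fold change -2.41 ± 0.50 SE, adjusted p = 0.000724). The part of pericytes that stay attached to sorted endothelium in these values was not tested.

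Genes of the endothelial barrier and its traffic were mostly higher in the CD31+ libraries. Of 17 tested junction genes 13 were higher and 2 lower (median 1.53). The first of the lower genes was Ocln, the tight junction occludin (-2.74 (adjusted p = 0.0425)). Ocln did not pass without any 1 of the 6 libraries (adjusted p = 0.0527 to 0.136). The other was the mesenchymal cadherin gene Cdh11 (14.9, 13.6 and 8.79 CPM against 237, 179 and 149 CPM, log2 fold change -3.92 ± 0.57 SE, adjusted p = 1.62e-05). Gja4, an arteriolar connexin, stood at 235, 218 and 262 CPM against 5.09, 8.59 and 4.92 CPM (log2 fold change 5.28 ± 0.47 SE, adjusted p = 3.22e-08). Gja1, a connexin of many stromal cells, stood at 447, 537 and 448 CPM against 356, 379 and 293 CPM (log2 fold change 0.48 ± 0.18 SE, adjusted p = 0.0442). Gja1 did not pass without any 1 of the 6 libraries (adjusted p = 0.0668 to 0.203). Of 14 genes of leukocyte adhesion 12 were higher and none lower (median 3.07). Madcam1, the addressin that brings lymphocytes to the gut, stood at 443, 939 and 433 CPM against 2.11, 6.53 and 2.27 CPM (log2 fold change 7.43 ± 0.92 SE, adjusted p = 2.45e-06). Sele, E-selectin, stood at 348, 376 and 291 CPM against 0.104, 0 and 0.216 CPM (log2 fold change 11.41 ± 1.16 SE, adjusted p = 2.16e-07). The second CD31+ library held the highest value in 9 of these 12 genes. Icam1 was also well expressed in the CD31- cells, at 306, 361 and 267 CPM against 1410.2, 1834 and 1359 CPM in the CD31+ libraries (log2 fold change 2.30 ± 0.24 SE, adjusted p = 3.15e-07). Its relative Vcam1 did not pass (307, 374 and 239 CPM against 231, 231 and 150.1 CPM, adjusted p = 0.31).

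Of 24 genes of hemostasis and vascular tone 14 were higher and 3 lower (median 1.06). Nos3, the endothelial nitric oxide synthase, stood at 372, 290.3 and 339.7 CPM against 0.277, 0.661 and 0.486 CPM (log2 fold change 9.55 ± 0.79 SE, adjusted p = 1.36e-08). Vwf, the platelet-binding von Willebrand factor, stood at 548, 329 and 316 CPM against 1.83, 1.98 and 4.43 CPM (log2 fold change 7.17 ± 0.69 SE, adjusted p = 1.01e-07). Plat, the tissue plasminogen activator, stood at 954, 2672 and 1360.5 CPM against 70.5, 97.6 and 57.9 CPM, with the second CD31+ library highest (log2 fold change 4.46 ± 0.44 SE, adjusted p = 1.36e-07). The 3 lower genes were the prostacyclin synthase Ptgis (-3.86 (adjusted p = 7.94e-05)), the endothelin receptor Ednra (-1.15 (adjusted p = 0.023)) and the angiotensin receptor Agtr1a (-1.62 (adjusted p = 0.00031)). Ednra did not pass without the first or the third CD31+ or the first CD31- library (adjusted p = 0.0561 to 0.0821). The endothelin ligand Edn1 was higher, at 330.1, 153 and 193 CPM against 36.2, 23.5 and 68.9 CPM (log2 fold change 2.39 ± 0.69 SE, adjusted p = 0.00862). Ace, the angiotensin-converting enzyme, stood at 457, 348 and 283 CPM against 190.4, 101 and 300.2 CPM with overlapping libraries (log2 fold change 0.88 ± 0.39 SE, adjusted p = 0.0806). Ace passed without the third CD31- library (adjusted p = 0.0231).

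Of 18 tested genes of vascular lipid uptake 11 were higher and 2 lower (median 2.17). Cd36, a fatty acid carrier, stood at 1812, 1960.2 and 1823 CPM against 57.7, 47.6 and 107 CPM (log2 fold change 4.72 ± 0.61 SE, adjusted p = 4.13e-06). Fabp4, a fatty acid binding protein of capillaries, stood at 2789.8, 929 and 2049 CPM against 3.60, 5.29 and 6.22 CPM (log2 fold change 8.58 ± 0.55 SE, adjusted p = 4.99e-10). Per length, Fabp4 stood at 3982 against 8.30 TPM and Cd36 at 1258 against 34.4 TPM (CD31+ against CD31-, group means of the authors' TPM). Scarb1, the high-density lipoprotein receptor, stood at 536, 277 and 497 CPM against 22.6, 21.2 and 19.0 CPM (log2 fold change 4.38 ± 0.29 SE, adjusted p = 8.34e-10). The caveolar gene Cav1 stood at 2385, 1563 and 2387 CPM against 109, 77.7 and 75.1 CPM (log2 fold change 4.59 ± 0.23 SE, adjusted p = 2.18e-11). Lpl, the lipase that Gpihbp1 anchors, stood at 107, 89.8 and 137 CPM against 219, 185 and 178 CPM and did not pass (adjusted p = 0.0501). Lpl passed without the third CD31+ library (adjusted p = 0.0354). The lower genes were Angptl4 and Slc27a4. Angptl4, an inhibitor of that lipase, stood at 31.1, 50.1 and 56.3 CPM against 122, 209 and 131 CPM (log2 fold change -1.75 ± 0.64 SE, adjusted p = 0.0328). Angptl4 did not pass without the first or the second CD31+ or the second CD31- library (adjusted p = 0.0657 to 0.105). Slc27a4, a fatty acid transporter that enterocytes are also known to express, stood at 23.5, 19.2 and 31.5 CPM against 309.5, 232 and 409 CPM (log2 fold change -3.68 ± 0.27 SE, adjusted p = 3.42e-09).

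Guidance genes of the semaphorin, Slit, netrin and ephrin families split by member: 15 of 25 were higher and 6 lower (median 1.46). The lower share was near that over all genes (21.6%). Sema3g, an arterial semaphorin, stood at 112, 40.1 and 42.4 CPM against 0.138, 0 and 0 CPM (log2 fold change 9.86 ± 1.24 SE, adjusted p = 3.12e-06). Plxnd1, an endothelial semaphorin receptor, stood at 71.5, 27.3 and 45.1 CPM against 6.44, 5.87 and 5.35 CPM (log2 fold change 3.03 ± 0.40 SE, adjusted p = 5.62e-06). Roundabout receptors split as well. Robo4 was higher (log2 fold change 10.34). Robo1 was lower at 0.354, 0 and 0.0862 CPM against 23.7, 15.5 and 19.6 CPM, and Robo2 was lower at 4.37, 6.23 and 5.0 CPM against 85.7, 65.4 and 68.6 CPM. Among non-overlapping genes at 10 CPM or more in the CD31- libraries, Robo1 was one of the 10 with the largest fitted fall (log2 fold change -6.90 ± 0.97 SE, adjusted p = 1.17e-05). Efnb2 and Ephb4, the arterial ligand and the venous receptor of the ephrin system, were both higher (1.94 (adjusted p = 7.63e-05) and 3.00 (adjusted p = 1.61e-09)). The first CD31+ library held the highest value in 12 of the 15 higher genes.

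Of 21 tested genes of sphingosine and lysophosphatidate signalling and of transport 11 were higher and 5 lower (median 0.84). The lower share was near that over all genes (21.6%). S1pr1, the receptor that holds the barrier closed, stood at 1040.0, 1215 and 912 CPM against 0.969, 0.826 and 1.35 CPM (log2 fold change 9.95 ± 0.79 SE, adjusted p = 7.34e-09). Spns2, the exporter of its ligand, stood at 298, 281 and 228 CPM against 15.4, 13.7 and 19.4 CPM (log2 fold change 4.06 ± 0.33 SE, adjusted p = 1.29e-08). The other sphingosine receptors tested lay the other way. S1pr2 stood at 7.02, 2.15 and 4.05 CPM against 42.5, 44.0 and 24.3 CPM (log2 fold change -3.06 ± 0.45 SE, adjusted p = 2.08e-05). S1pr3 stood at 47.7, 61.2 and 51.4 CPM against 127, 188 and 117 CPM (log2 fold change -1.43 ± 0.40 SE, adjusted p = 0.00776). Slc2a1, the glucose carrier of barrier endothelium, stood at 60.3, 65.1 and 63.2 CPM against 8.55, 8.02 and 7.57 CPM (log2 fold change 2.96 ± 0.20 SE, adjusted p = 9.05e-10). Mfsd2a, a lipid carrier of brain endothelium that enterocytes also carry, was lower at 2.30, 2.70 and 3.02 CPM against 31.0, 23.6 and 50.5 CPM (log2 fold change -3.71 ± 0.92 SE, adjusted p = 0.00288).

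On the CD31- side, genes of the fibrillar matrix were higher nearly throughout. Of 22 genes of fibrillar matrix 20 were lower in the CD31+ libraries and none higher (median -3.56). Their sum in the CD31+ libraries was 12.9% of that in the CD31- libraries. Col3a1, collagen III, stood at 530.1, 382 and 386 CPM against 8878, 6993 and 6362 CPM (log2 fold change -4.10 ± 0.59 SE, adjusted p = 1.5e-05). Col1a1, collagen I, stood at 62.9, 45.3 and 39.8 CPM against 1581, 1072 and 1005 CPM (log2 fold change -4.63 ± 0.75 SE, adjusted p = 5.48e-05). Dcn, the proteoglycan decorin, stood at 341, 613 and 374 CPM against 6194, 7069.9 and 4470.5 CPM (log2 fold change -3.74 ± 0.60 SE, adjusted p = 5.19e-05). The first CD31- library held the highest value in 18 of the 20 lower matrix genes. Eln, elastin, did not pass (275, 136 and 207 CPM against 441, 246 and 227 CPM), nor did the crosslinking oxidase gene Lox (59.3, 53.6 and 47.7 CPM against 63.8, 68.6 and 59.5 CPM). Sparc, a collagen-binding matricellular protein gene, stood at 1869.7, 923 and 1532 CPM against 2855, 2326 and 2178 CPM (log2 fold change -0.77 ± 0.26 SE, adjusted p = 0.024). Sparc did not pass without the second CD31+ or the first CD31- library (adjusted p = 0.0952 and 0.0936).

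Basement membrane genes, by contrast, were called in both directions, with 3 of 18 higher and 7 lower (median -0.16). The higher share was under that over all genes (20.1%). Collagen IV overlapped between the gates. Col4a1 stood at 1336, 404 and 816 CPM against 970.4, 618 and 716 CPM (log2 fold change 0.15 ± 0.41 SE, adjusted p = 0.806). Laminin chains differed by member. Lama5, a chain of vessel basement membranes, was higher at 57.5, 47.0 and 56.8 CPM against 7.16, 7.11 and 7.30 CPM (log2 fold change 2.90 ± 0.37 SE, adjusted p = 3.44e-06), as was Lamb2 (1.96 (adjusted p = 1.62e-05)). Lama2, a chain of muscle and mesenchyme, was lower at 17.8, 16.7 and 10.2 CPM against 151, 119.7 and 117 CPM (log2 fold change -3.11 ± 0.50 SE, adjusted p = 5.51e-05), as was Lamb1 (-1.31 (adjusted p = 0.000165)). Sparcl1, a matricellular protein gene, was higher at 1474, 1450.3 and 1388 CPM against 321, 345 and 319.6 CPM (log2 fold change 2.13 ± 0.28 SE, adjusted p = 5.73e-06). Integrins were split too, 5 of 17 higher and 6 lower (median -0.29). Without the first CD31+ or the second CD31- library 3 were higher, and without the third CD31+ library 3 were lower. These reduced counts lay under the shares over all genes in the fit to all libraries (20.1% higher and 21.6% lower). The laminin receptor chain Itga6 was higher (2.57 (adjusted p = 5.7e-05)), the collagen receptor chains Itga1 and Itga11 lay in opposite directions (2.26 (adjusted p = 6.65e-08) and -3.84 (adjusted p = 0.000173)). The common chain Itgb1 did not pass (759, 731 and 819 CPM against 744, 677 and 624 CPM).

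Fibroblast subtypes were lower in part. Of 14 genes of Pdgfra-high subepithelial fibroblasts, which lie under the epithelium and make BMP and noncanonical Wnt ligands, 10 were lower in the CD31+ libraries and 1 higher (median -3.29). F3, tissue factor, stood at 10, 23.0 and 8.27 CPM against 94.2, 154 and 112 CPM (log2 fold change -3.12 ± 0.56 SE, adjusted p = 0.000164). The higher gene was Procr, the protein C receptor, which endothelium also carries, at 195, 106 and 169.9 CPM against 44.4, 40.9 and 34.7 CPM (log2 fold change 1.97 ± 0.28 SE, adjusted p = 1.24e-05). Among 14 genes of Pdgfra-low crypt-base fibroblasts 8 were lower and 3 higher (median -2.16). As a sum, this list reached in the CD31+ libraries 105% of its level in the CD31- libraries, and the Pdgfra-high list 37.0%. The higher share was near that over all genes (20.1%). Ogn, the proteoglycan osteoglycin, stood at 24.6, 31.7 and 20.9 CPM against 248, 199 and 205 CPM (log2 fold change -3.08 ± 0.55 SE, adjusted p = 0.000151). Gas1, a Hedgehog co-receptor gene, stood at 14.7, 3.04 and 14.3 CPM against 101, 78.4 and 84.8 CPM (log2 fold change -3.04 ± 0.45 SE, adjusted p = 2.02e-05). The higher genes were the tetraspanin Cd81 (934, 1837 and 946 CPM against 127, 186 and 183 CPM), Cd34 and Ly6a, and the last is a surface antigen of many vessels (1909, 970.3 and 1369.8 CPM against 259, 179.6 and 153 CPM). In each of these 3 the groups did not overlap.

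BMP ligands and their antagonists, which set the crypt-to-villus gradient, lay on the CD31- side: 12 of 17 were lower in the CD31+ libraries and none higher (median -2.45). Bmp4 stood at 33.0, 40.2 and 27.6 CPM against 207, 215 and 154 CPM (log2 fold change -2.51 ± 0.39 SE, adjusted p = 3.74e-05). Bmp5, a ligand of subepithelial fibroblasts, stood at 10.2, 6.85 and 8.44 CPM against 119, 90.0 and 82.6 CPM (log2 fold change -3.51 ± 0.51 SE, adjusted p = 1.62e-05). The antagonist Chrd, chordin, stood at 2.54, 0.484 and 4.48 CPM against 44.5, 34.8 and 30.5 CPM (log2 fold change -3.89 ± 0.77 SE, adjusted p = 0.000412). Bmp6, a ligand also made by endothelium elsewhere, did not pass at 60.5, 59.3 and 59.2 CPM against 99.2, 88.2 and 60.5 CPM (adjusted p = 0.156). The receptors lay partly on the other side, with 8 of 16 TGF-beta and BMP receptor and target genes higher and 3 lower (median 0.69). Their lower share was under that over all genes (21.6%). Acvrl1, the endothelial type I receptor, stood at 525, 395 and 437 CPM against 99.6, 91.3 and 64.6 CPM (log2 fold change 2.41 ± 0.19 SE, adjusted p = 5.7e-09). Its co-receptor Eng stood at 414, 234 and 297 CPM against 43.0, 35.5 and 29.6 CPM (log2 fold change 3.13 ± 0.28 SE, adjusted p = 4.16e-08). The target gene Id1 stood at 337, 297 and 331 CPM against 45.1, 47.7 and 34.4 CPM (log2 fold change 2.92 ± 0.28 SE, adjusted p = 8.86e-08). Against these, the type I receptor Bmpr1a was lower, at 17.3, 17.6 and 15.3 CPM against 111, 96.0 and 100.3 CPM (log2 fold change -2.61 ± 0.38 SE, adjusted p = 1.87e-05).

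Among 21 Wnt ligands and antagonists 13 were lower in the CD31+ libraries and 3 higher (median -3.44). The ligand Wnt4 stood at 3.13, 2.21 and 4.48 CPM against 40.1, 36.4 and 29.3 CPM (log2 fold change -3.43 ± 0.58 SE, adjusted p = 8.45e-05). Wnt5a, a noncanonical ligand, stood at 5.84, 1.11 and 3.27 CPM against 46.6, 17.3 and 27.4 CPM (log2 fold change -3.15 ± 0.66 SE, adjusted p = 0.000756). Wnt2b, a canonical ligand of gut stroma, stood at 0.944, 0 and 1.12 CPM against 24.6, 13.3 and 17.9 CPM (log2 fold change -4.76 ± 0.94 SE, adjusted p = 0.000427). The antagonist Sfrp1 stood at 74.8, 86.2 and 51.4 CPM against 1356, 1258 and 924 CPM (log2 fold change -4.06 ± 0.60 SE, adjusted p = 2.21e-05). The antagonist Wif1 had 4.53, 7.52 and 3.24 CPM in the CD31- libraries and no count in the CD31+ libraries (at least 73.1-fold lower, adjusted p = 0.000334). On the CD31+ side were 3 genes. The ligand Wnt2 stood at 23.3, 28.1 and 45.3 CPM against 0.173, 0.826 and 0.0541 CPM (log2 fold change 6.77 ± 0.66 SE, adjusted p = 1.17e-07). The ligand Wnt9b stood at 1.48, 1.94 and 2.50 CPM against 0, 0 and 0.108 CPM with 2 counts in all in the CD31- libraries (adjusted p = 0.00129). The antagonist Dkk2 stood at 41.1, 66.8 and 47.0 CPM against 24.7, 17.4 and 17.4 CPM (log2 fold change 1.38 ± 0.54 SE, adjusted p = 0.0485). Dkk2 did not pass without any 1 of the 6 libraries (adjusted p = 0.0609 to 0.16). Rspo2, a relative of Rspo3, was low in both gates and lower in the CD31+ libraries (1.3, 0 and 0 CPM against 4.81, 7.11 and 3.46 CPM, adjusted p = 0.0143). Its relative Rspo1 did not pass. Rspo1 passed without the second CD31+ library (adjusted p = 0.00767).

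Wnt receptors and targets were divided, 3 of 19 higher and 7 lower (median -0.55), and the higher share was under that over all genes (20.1%). Fzd4, a receptor known from retinal vessels, was higher at 309, 293 and 257 CPM against 19.1, 24 and 25 CPM (log2 fold change 3.66 ± 0.25 SE, adjusted p = 9.05e-10). Its co-receptor Tspan12 was higher at 148, 238 and 157 CPM against 13.1, 14.0 and 10.5 CPM (log2 fold change 3.85 ± 0.24 SE, adjusted p = 3.18e-10), and Fzd6 was the other higher gene (7.14 (adjusted p = 2.22e-06)). The receptor Fzd1 was lower at 18.9, 15.9 and 12.1 CPM against 165, 114 and 98.2 CPM (log2 fold change -3.01 ± 0.51 SE, adjusted p = 9.59e-05). Fzd2 was lower at 1.24, 2.01 and 1.12 CPM against 37.2, 23.9 and 19.2 CPM (log2 fold change -4.19 ± 0.57 SE, adjusted p = 8.02e-06). Lgr4, the R-spondin receptor of broad expression, was lower at 8.68, 8.17 and 6.89 CPM against 30.4, 28.2 and 39.6 CPM (log2 fold change -2.05 ± 0.28 SE, adjusted p = 7.58e-06). Axin2, a general Wnt target, was near 1 CPM in several libraries with overlapping groups (1.95, 0.484 and 0.258 CPM against 4.40, 0.992 and 3.35 CPM, adjusted p = 0.0475). Axin2 did not pass without the second or the third CD31+ or the first or the third CD31- library (adjusted p = 0.108 to 0.188).

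Genes of the Hedgehog pathway and growth factors of the epithelium also lay mainly on the CD31- side. Of 8 Hedgehog pathway genes 6 were lower and none higher (median -2.37). The receptor Ptch1 stood at 20.8, 19.3 and 20.2 CPM against 76.8, 52.3 and 59.5 CPM (log2 fold change -1.65 ± 0.25 SE, adjusted p = 2.9e-05). Hhip, a Hedgehog-binding protein gene, stood at 15.8, 11.7 and 15 CPM against 158, 57.3 and 105 CPM (log2 fold change -2.91 ± 0.37 SE, adjusted p = 3.71e-06). Among 12 growth factors of the epithelium 9 were lower and 2 higher (median -2.49). Ereg, epiregulin, stood at 15.3, 13.6 and 16.4 CPM against 344, 280.2 and 281 CPM (log2 fold change -4.32 ± 0.76 SE, adjusted p = 0.00013). Hgf, hepatocyte growth factor, stood at 3.01, 3.32 and 3.71 CPM against 45.9, 30.3 and 27.3 CPM (log2 fold change -3.37 ± 0.50 SE, adjusted p = 2e-05). Igf1 stood at 23.0, 22.1 and 26.2 CPM against 171, 138 and 136 CPM (log2 fold change -2.64 ± 0.40 SE, adjusted p = 2.86e-05). Areg, amphiregulin, was lower too (13.2, 3.67 and 28.0 CPM against 231, 189 and 581 CPM, adjusted p = 0.000758), and its highest CD31- library was the third, as for most epithelial genes. The part of epithelial RNA in it was not tested. The growth factors of the CD31+ side were Igf2 and Kitl. Igf2 stood at 71.5, 61.9 and 36.4 CPM against 3.63, 5.04 and 3.14 CPM (log2 fold change 3.85 ± 0.47 SE, adjusted p = 2.32e-06). Kitl, the ligand of Kit, stood at 138, 138 and 87.6 CPM against 52.6, 59.4 and 47.1 CPM (log2 fold change 1.19 ± 0.35 SE, adjusted p = 0.00982).

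Retinoic acid genes were split by enzyme direction. The synthesis enzymes Aldh1a1, Aldh1a2 and Aldh1a3 were lower in the CD31+ libraries (-4.42 (adjusted p = 8.47e-06), -4.05 (adjusted p = 2.52e-06) and -3.77 (adjusted p = 9.74e-06)), with Aldh1a3 at 48.9, 67.0 and 52.5 CPM against 845, 763 and 692 CPM. Cyp26b1, which degrades retinoic acid, was higher at 115, 91.4 and 319 CPM against 0.173, 0 and 1.51 CPM (log2 fold change 8.24 ± 1.08 SE, adjusted p = 5.15e-06). The third CD31+ library held the highest value of it and of the other 2 higher genes, Dhrs3 and Rarb. Rarb did not pass without the third CD31+ or the second or the third CD31- library (adjusted p = 0.0717 to 0.0873). In all, 3 of 11 tested were higher and 5 lower (median -2.98). Of 15 prostaglandin genes 8 were lower and 1, the prostacyclin receptor gene Ptgir, was higher (median -1.47). Ptgir did not pass without any 1 of the 6 libraries other than the third CD31+ library (adjusted p = 0.0869 to 0.207). The inducible synthase Ptgs2 stood at 16.6, 20.6 and 13.0 CPM against 106, 138 and 124 CPM (log2 fold change -2.87 ± 0.37 SE, adjusted p = 4.96e-06). Ptges, which makes prostaglandin E, stood at 18.5, 10.4 and 19.99 CPM against 139, 149 and 105 CPM (log2 fold change -3.01 ± 0.43 SE, adjusted p = 1.32e-05). The constitutive synthase Ptgs1 overlapped between the gates (155, 131 and 124 CPM against 143, 130.5 and 107 CPM, adjusted p = 0.746).

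Complement and chemokine genes were called in both directions. Of 15 tested complement genes 9 were lower and 2 higher (median -1.60), and the higher share was under that over all genes (20.1%). C3, the central component, stood at 40.7, 43.0 and 35.9 CPM against 629.5, 510.2 and 437 CPM (log2 fold change -3.72 ± 0.62 SE, adjusted p = 8.13e-05). C4b stood at 72.8, 103 and 57.0 CPM against 1561, 1618 and 974 CPM (log2 fold change -4.16 ± 0.70 SE, adjusted p = 8.81e-05). The higher genes were Clu and Cd59a. Clu, clusterin, stood at 908, 860.1 and 877 CPM against 59.2, 169 and 60.6 CPM (log2 fold change 3.20 ± 0.64 SE, adjusted p = 0.000495). The membrane inhibitor Cd59a had a log2 fold change of 1.74 (adjusted p = 1.75e-05). Of 24 chemokines and cytokines 5 were higher and 8 lower (median -0.47), and 5 were lower without the first CD31- library. The higher share, and the lower share without that library, were near those over all genes (20.1% and 21.6%). Ccl11, eotaxin, stood at 109, 101 and 97.5 CPM against 1072, 1029 and 784 CPM (log2 fold change -3.23 ± 0.32 SE, adjusted p = 1.8e-07). Cxcl12, a retention factor made by many stromal cells, stood at 760.4, 201 and 421 CPM against 1078, 911 and 807 CPM (log2 fold change -1.02 ± 0.32 SE, adjusted p = 0.0149). Cxcl12 did not pass without the first CD31- library (adjusted p = 0.055). Its scavenger receptor Ackr3 was higher at 586, 490.1 and 697 CPM against 126, 113 and 102 CPM (log2 fold change 2.38 ± 0.20 SE, adjusted p = 2.23e-08). The lymphocyte survival factor Il7 was higher too, at 20.6, 29.3 and 47.7 CPM against 5.23, 7.85 and 4.05 CPM (log2 fold change 2.52 ± 0.29 SE, adjusted p = 1.08e-06). Il33, an alarmin, did not pass at 122, 256 and 302 CPM against 184, 186 and 190.3 CPM (adjusted p = 0.464).

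**Figure D3:**
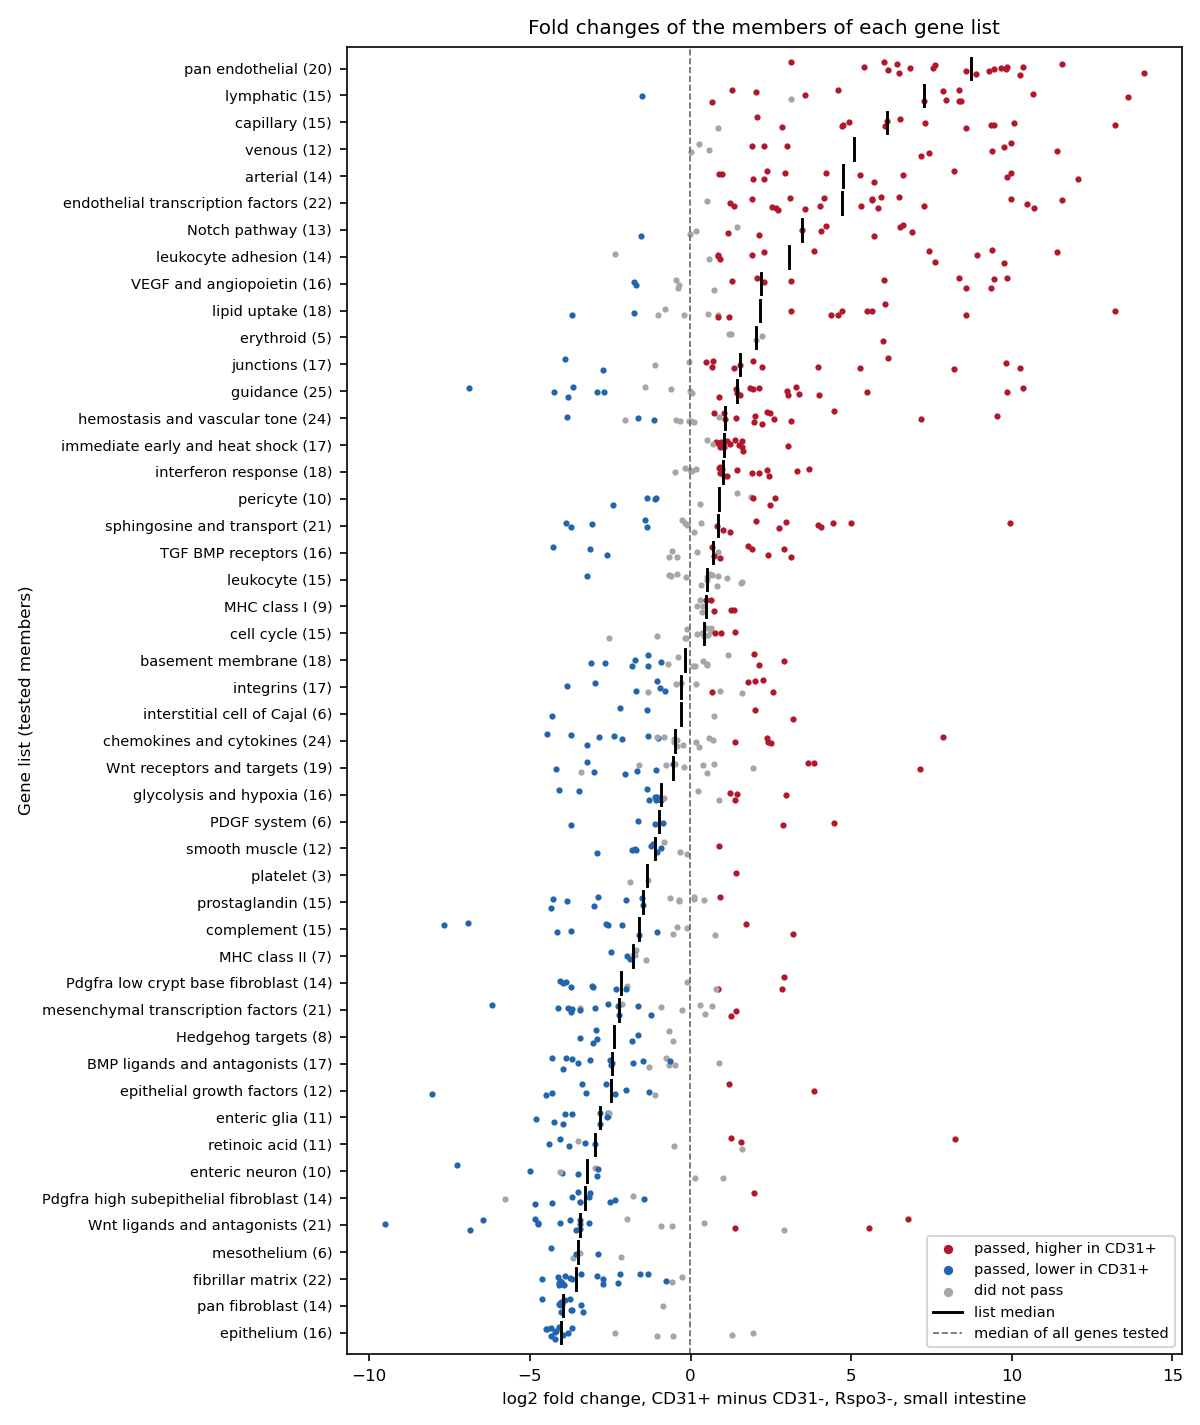
Log2 fold change (CD31+ / CD31-, Rspo3-, small intestine) of every tested member of each gene list; each point is 1 gene, coloured by whether it passed at an adjusted p under 0.05 as higher or lower, and the bar marks the list's median. Endothelial lists sit to the right with a pan-endothelial median of 8.73, matrix, BMP and Wnt lists to the left with a fibrillar matrix median of -3.56, and pericyte, integrin and basement membrane lists straddle 0.

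Genes of cell state had smaller median differences than the endothelial lists. Of 18 interferon-response genes 13 were higher and none lower (median 1.01). Ifi44 stood at 65.2, 86.5 and 88.1 CPM against 8.83, 6.45 and 3.35 CPM (log2 fold change 3.68 ± 0.27 SE, adjusted p = 2.71e-09). The guanylate-binding protein gene Gbp4 stood at 256, 300.5 and 219 CPM against 27.1, 35.4 and 16.1 CPM (log2 fold change 3.30 ± 0.30 SE, adjusted p = 4.07e-08). The transcription factor Irf1 stood at 1003, 840.4 and 1137 CPM against 241, 250.1 and 302 CPM (log2 fold change 1.91 ± 0.21 SE, adjusted p = 4.98e-07). Among 9 MHC class I genes 5 were higher (median 0.48), and 2 or 3 were higher without the second or the third library of either group. A count of 2 is near the share over all genes in the fit to all libraries (20.1%). The peptide transporter gene Tap2 stood at 307, 304 and 309 CPM against 121, 129 and 107 CPM (log2 fold change 1.37 ± 0.13 SE, adjusted p = 8.79e-08). Among 17 immediate early and heat shock genes, which cell isolation is also known to induce, 15 were higher (median 1.05). Fos stood at 6434, 6905 and 5702 CPM against 3002, 3485 and 2724 CPM (log2 fold change 1.05 ± 0.20 SE, adjusted p = 0.000378). The second CD31+ library held the highest value in 11 of the 15. Of 15 cell cycle genes 3, the replication genes Mcm2, Mcm5 and Pcna, were higher, a share near that over all genes (20.1%). The proliferation marker Mki67 stood at 1.53, 2.35 and 1.55 CPM against 1.94, 2.89 and 1.35 CPM.

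MHC class II and glycolysis genes were lower in part. Of 7 class II genes 4 were lower and none higher (median -1.78), and 2 were lower without any 1 of the 6 libraries. In the fit to all libraries 21.6% of all genes were lower. H2-DMa stood at 7.67, 12.2 and 7.58 CPM against 40.6, 52.7 and 60.1 CPM (log2 fold change -2.48 ± 0.56 SE, adjusted p = 0.00141). Cd74, the invariant chain, stood at 247, 559.8 and 265 CPM against 987, 1268 and 1264 CPM without passing (adjusted p = 0.0735). Of 16 genes of glycolysis and hypoxia 9 were lower and 4 higher (median -0.93). Ldha, lactate dehydrogenase, stood at 633, 513 and 609 CPM against 1288, 1324 and 1848 CPM (log2 fold change -1.35 ± 0.18 SE, adjusted p = 6.09e-06). The hexokinase gene Hk1 was higher, at 131, 159 and 155 CPM against 63.6, 57.8 and 48.4 CPM (log2 fold change 1.39 ± 0.16 SE, adjusted p = 7.96e-07). The epithelial list was lower too, at a summed 703.2 to 1347 CPM in the CD31+ and 13270 to 25080 CPM in the CD31- libraries. The third CD31- library was highest in 8 of the 9 lower glycolysis genes. In colon (Rspo3-), 10 of 16 epithelial genes were lower in the CD31+ libraries. There 2 of 7 class II genes were higher and none lower, and 6 of 16 glycolysis and hypoxia genes were higher and 1 lower. Over all genes 16.1% were higher and 16.4% lower in colon. The part of epithelial RNA in these differences was not tested.

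The 10 lower genes of the smallest adjusted p were Acsl5, Abcd3, Bpnt1, Slc25a15, Mcu, Slc27a4, Sephs2, Cndp2, Mtch2 and Sgpl1. All 10 were highest in the third CD31- library, which was also the highest for most epithelial genes, and the part of epithelial RNA in them was not tested. Acsl5, an acyl-CoA synthetase, stood at 184, 218 and 259 CPM against 1222, 1207 and 1766 CPM (log2 fold change -2.67 ± 0.17 SE, adjusted p = 6.49e-10). Slc25a15, the mitochondrial ornithine carrier, stood at 11.8, 16.5 and 17.1 CPM against 123, 116 and 183 CPM (log2 fold change -3.22 ± 0.23 SE, adjusted p = 1.8e-09). Among genes at 100 CPM or more in the CD31- libraries, the largest fitted falls were led by Leap2, an antagonist of the ghrelin receptor, at 4.54, 5.12 and 6.03 CPM against 147, 101 and 225 CPM (log2 fold change -4.91 ± 0.54 SE, adjusted p = 6.14e-07). Apob, the chylomicron protein gene, stood at 32.7, 8.51 and 46.2 CPM against 730.0, 423 and 1421 CPM (log2 fold change -4.88 ± 0.74 SE, adjusted p = 2.7e-05). The stromal genes Col1a1 and Clec3b were also among the 10. Tac1, the neuropeptide gene of substance P, had the lowest fitted fold change among non-overlapping genes at 10 CPM or more in the CD31- libraries, with 7.06, 16.7 and 7.62 CPM in the CD31- libraries and no count in the CD31+ libraries (at least 149.9-fold lower, adjusted p = 0.000211).

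A list of 57 ligand and receptor pairs was read for the gate in which each partner was higher. Both partners were higher in the CD31+ libraries in 11 pairs, among them Vegfc with Flt4, Angpt2 with Tek, Dll4 with Notch1 and Notch4, Efnb2 with Ephb4, and Apln with Aplnr. In 9 pairs the ligand was lower and the receptor higher in the CD31+ libraries, as for Cxcl12 with Ackr3, Slit3 with Robo4, Hgf with Met, and Bmp4 with Bmpr2. Met, the Hgf receptor, stood at 37.5, 56.7 and 31.9 CPM against 13.9, 8.68 and 18.6 CPM (log2 fold change 1.61 ± 0.49 SE, adjusted p = 0.0124). Met did not pass without the second CD31+ or the second CD31- library (adjusted p = 0.0667 and 0.0708). In 6 pairs the ligand was higher and the receptor lower, as for Pdgfb and Pdgfd with Pdgfrb, Edn1 with Ednra, and Gas6 with Axl. In 5 pairs both were lower, as for Pdgfa with Pdgfra and Fgf7 with Fgfr2. Fgf7 did not pass without the first or the third CD31+ or the first CD31- library (adjusted p = 0.0559 to 0.0831). Gas6, a ligand that bridges dying cells to phagocytes, stood at 386, 386 and 463 CPM against 179, 170.1 and 152 CPM (log2 fold change 1.3 ± 0.16 SE, adjusted p = 1.79e-06). Its receptor Axl stood at 110.0, 96.4 and 107 CPM against 479.6, 458 and 356 CPM (log2 fold change -2.05 ± 0.41 SE, adjusted p = 0.000522). RNA levels in sorted cells show where a transcript was measured, and signalling between the cells was not measured.

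**Figure D4:**
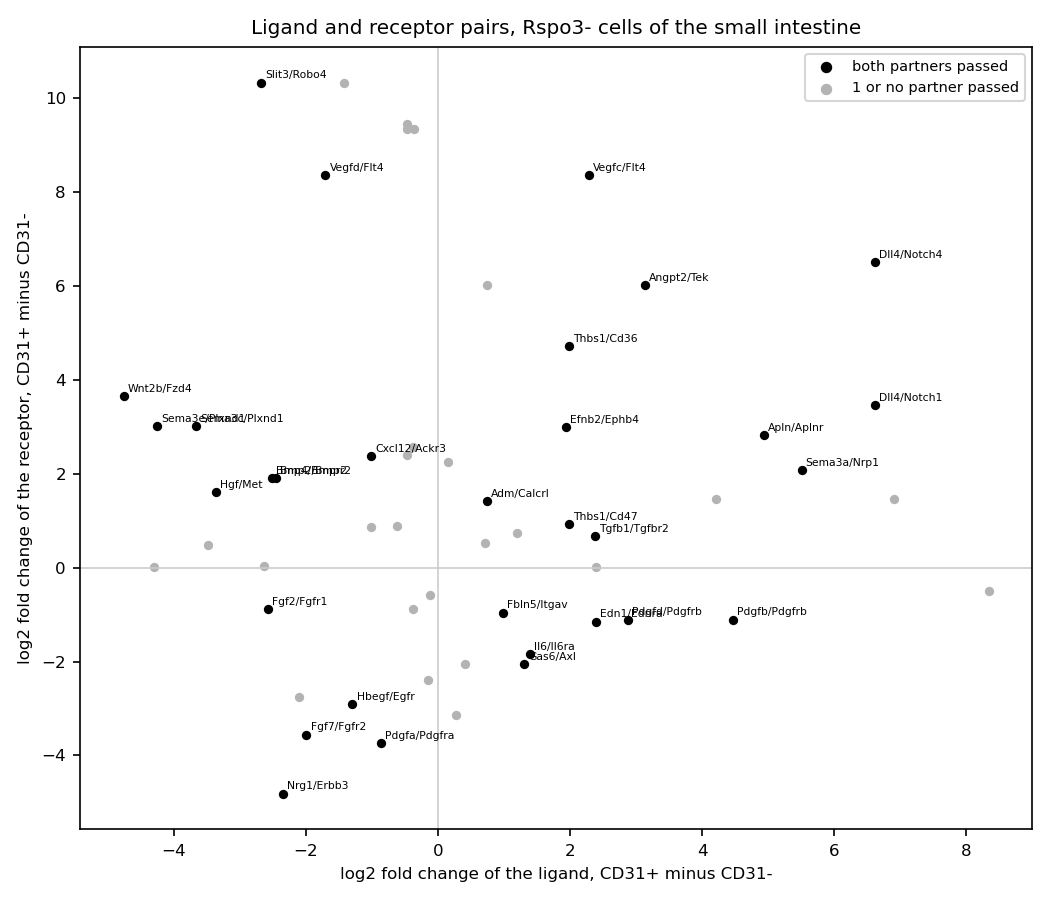
Log2 fold change (CD31+ / CD31-, Rspo3-, small intestine) of ligands on the horizontal axis against that of their receptors on the vertical axis. Each point is 1 pair of a list of 57, less 1 whose ligand was not tested. Of the pairs in which both partners passed (black), 11 lie at upper right (both higher in CD31+), 9 at upper left, 6 at lower right and 5 at lower left.

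The same comparison in colon came from 6 other libraries, also Rspo3-. There 3070 genes were higher in the CD31+ libraries (16.1% of those tested) and 3129 lower (16.4%). Of the genes higher in small intestine 60.4% were higher in colon and 25 were lower there, and of the genes lower in small intestine 52.5% were lower in colon and 53 were higher there. As shares of the colon calls, the shared genes were 75.3% of those higher and 69.0% of those lower. All 20 pan-endothelial genes were higher in colon too.

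The difference between CD31+ and CD31- cells itself differed by tissue, by an interaction term, in 949 genes, which is 4.98% of those tested, and among 628 tested members of the lists in 76. Of the 949, 344 had a larger signed log2 fold change in small intestine and 605 a smaller one. A smaller signed value can also be a stronger fall in small intestine, as for Acsl5 and Slc25a15. Wnt2 changed sign. Against the small intestinal values given above, colon stood at 2.44 ± 1.61 CPM for CD31+ cells against 12.0 ± 0.691 CPM for CD31- cells (mean ± SD, n = 3). The difference of log2 fold changes was 9.06 ± 0.83 SE, adjusted p = 2.92e-06. Sema3a, a repulsive semaphorin, stood at 17.6, 20.4 and 26.8 CPM against 0.173, 0.0826 and 1.14 CPM in small intestine and at 8.29 ± 5.14 CPM against 27.1 ± 6.06 CPM in colon (mean ± SD, n = 3). It too changed sign (difference of log2 fold changes 7.21 ± 0.80 SE, adjusted p = 2.41e-05). Fgl2, a fibrinogen-like protein gene, was higher in the CD31+ libraries of small intestine at 794, 1248 and 1403 CPM against 80.5, 103 and 108 CPM. In colon it stood at 493 ± 78.7 CPM against 472 ± 70.9 CPM (difference of log2 fold changes 3.50 ± 0.31 SE, adjusted p = 2.17e-06). Ace went the other way, with 386 ± 65.8 CPM against 8.57 ± 4.06 CPM in colon and overlapping values in small intestine (-4.62 ± 0.58 SE, adjusted p = 7.69e-05).

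The tissue difference passed in 4 of 15 lymphatic and 2 of 20 pan-endothelial genes (4.98% over all genes). The lymphatic genes were Prox1, Fgl2, the neuropilin gene Nrp2 and the integrin gene Itga9. Larger shares passed in other lists: 9 of 16 glycolysis and hypoxia genes, 3 of 7 MHC class II genes and 2 of 6 genes of interstitial cells of Cajal. Clec14a, Tek, Cav1, Cav2 and Ly6c1 had larger differences in small intestine (interaction log2 values 3.67, 2.15, 2.95, 2.48 and 3.24), as did Prox1 (3.47 ± 0.62 SE, adjusted p = 0.00188). Spns2 and Aqp1, the water channel of vessels, had smaller ones (-3.52 and -3.42, adjusted p = 7.99e-05 and 0.00849). Acsl5, Slc25a15 and Bpnt1, which were lower in the CD31+ libraries of small intestine, had log2 fold changes of 0.39, 1.04 and 0.28 in colon. Without the third CD31- library of small intestine, the library highest in epithelial genes, 530 genes passed this interaction. In the fit to all libraries none of the 16 epithelial genes passed it, and 10 of them were lower in the CD31+ libraries of colon. The part of epithelial RNA in the tissue differences was not tested.

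**Figure D5:**
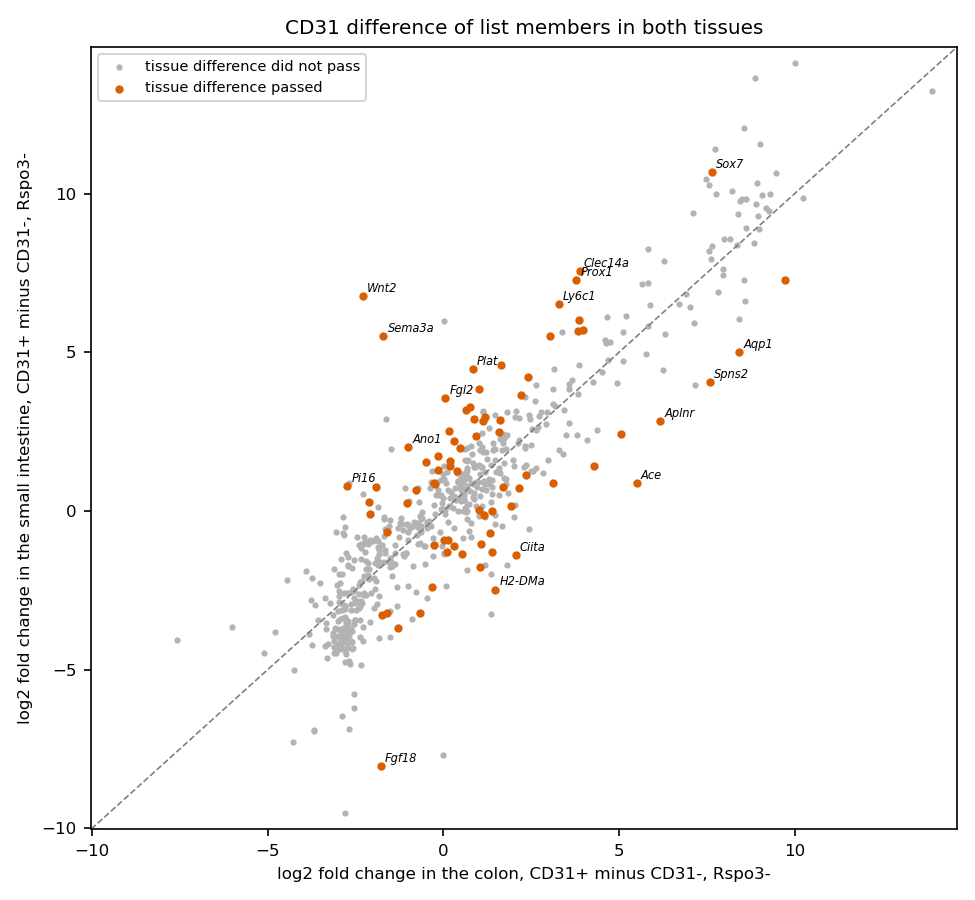
Log2 fold change between CD31+ and CD31- libraries (Rspo3-) in colon on the horizontal axis against that in small intestine on the vertical axis. Each point is 1 of 628 tested list members, the 76 whose difference between tissues passed are orange, and the dashed line marks equal values. Wnt2 and Sema3a lie above 0 in small intestine and below 0 in colon, and Ace lies to the right of the line.

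The same comparison among Rspo3+ cells of small intestine also came from 6 other libraries. There 3211 genes were higher in the CD31+ libraries (16.9% of those tested) and 3739 lower (19.6%). Of the genes higher in Rspo3- CD31+ cells 46.0% were higher there and 342 were lower, and of the lower genes 44.1% were lower there and 239 were higher. The shared genes made up 54.7% of the higher and 48.5% of the lower calls among Rspo3+ cells. The CD31 difference itself differed by Rspo3 gate in 4620 genes (24.3%), and in 309 of the 628 list members. Of the 4620, 2503 had a larger signed log2 fold change among Rspo3- cells and 2117 a smaller one, which can also be a stronger fall. Ly6c1, a surface antigen of capillary endothelium, stood at 2641, 1370.2 and 2039 CPM against 25, 22.5 and 18.5 CPM here and at 16.4 ± 6.44 CPM against 119 ± 34.8 CPM among Rspo3+ cells (CD31+ against CD31-, mean ± SD, n = 3). The log2 fold changes differed by 9.37 ± 0.50 SE, adjusted p = 5.09e-10. Cd34, which marks both vessels and crypt-base fibroblasts, stood at 597, 661 and 532 CPM against 355, 369 and 266 CPM here and at 35.9 ± 7.62 CPM against 1578 ± 104 CPM among Rspo3+ cells (6.31 ± 0.36 SE, adjusted p = 1.09e-09).

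Several vessel genes had far smaller log2 fold changes among Rspo3+ cells. Flt1 had a log2 fold change of 9.36 among Rspo3- and 0.27 among Rspo3+ cells (interaction adjusted p = 1.84e-07), Plvap 7.29 and 0.20 (9.39e-08), and Vwf 7.17 and 0.50 (8.85e-06). Of 15 lymphatic genes 6 differed by Rspo3 gate, and of 20 pan-endothelial genes 16 did (24.3% over all genes). Among the 6, Ccl21a had 7.87 and 5.56, Mmrn1 had 10.66 and 6.79, and Pdpn had -1.51 and 1.08 among Rspo3- and Rspo3+ cells (interaction adjusted p = 0.00218, 0.00136 and 0.000645). The lymphatic genes that did not pass included Prox1 at 7.26 and 6.64, Lyve1 at 7.95 and 6.61, and Flt4 at 8.37 and 6.69. A missed threshold does not show that these values were alike (adjusted p = 0.507, 0.171 and 0.153). The fibroblast genes Col1a1 and Col3a1 were lower in the CD31+ libraries of both gates (-4.63 and -6.18, -4.10 and -6.13).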

How the data were processed

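Whole-number estimated counts per Ensembl gene were deposited by the authors for all 24 libraries, made with Salmon 1.3.0 and R 4.0.1 on mm10, per the submitters' processing notes. The deposited log2(TPM + 1) values were used for levels per length and for 1 alternative. RNA had been purified on Qiagen columns and amplified with SMART-Seq v4 chemistry, which does not mark strand, per the labels' protocols, so overlapping and antisense genes cannot be told apart. Libraries were matched to groups by the gate marks in their column names, which carry no replicate number; library numbers here are names only.

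GENCODE M21 (GRCm38) gave symbols for 54166 of 54418 gene IDs. Counts were fitted with edgeR 4.0.16 (R 4.3.3): filterByExpr (minimum count 10, minimum total 15), TMM, 1 mean for each of 8 groups over all 24 libraries, glmQLFit and glmQLFTest, with contrasts for each CD31 difference and for its differences between tissues and Rspo3 gates. The common biological coefficient of variation was 0.429. The script was tested on simulated data. Genes were named by fixed rules: the gate genes, the 10 largest rises and falls at 10 and at 100 CPM or more, the 10 smallest adjusted p in each direction and for each interaction, and members of the 48 gene lists and of the pairs. The members, lists and rules were chosen with earlier results of these data known. Alternatives used DESeq2 1.42.0, limma 3.58.1, other scalings and filters, and fits without each library. Floors of 3 counts over a group equal 0.0698 CPM (CD31+) and 0.0504 CPM (CD31-) and cover counting error only. Promoter sequences are RefSeq's.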

Additional observations from a re-analysis of the deposited data

Results flagged for a closer look

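In these genes the difference between CD31+ and CD31- cells itself differed between groups, by an interaction term over 3 libraries per group (edgeR's quasi-likelihood test). Between small intestine and colon (Rspo3-), the log2 fold change was larger in small intestine by 9.06 for Wnt2, 3.5 for Fgl2, 3.67 for Clec14a and 2.95 for the caveolin gene Cav1. It was smaller there, with values of -4.27 for Slc25a15, -3.06 for Acsl5, -3.03 for the aminopeptidase gene Lap3, -3.2 for Bpnt1, -2.77 for Sephs2 and -4.5 for the fructokinase gene Khk. Adjusted p for these 10 genes ranged from 2.98e-07 to 4.9e-06. The genes with negative values were each highest in the third CD31- library of small intestine, which also held the highest level of most epithelial genes, and the part of epithelial RNA was not tested.

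Between Rspo3- and Rspo3+ cells of small intestine, the log2 fold change was larger among Rspo3- cells by 4.52 for Swap70, 9.37 for Ly6c1, 6.31 for Cd34, 7.28 for Sparcl1, 7.98 for the stem cell antigen gene Ly6a, 5.05 for the protease gene Adam15, 4.38 for the actin-capping gene Capg, 5.06 for the membrane protein gene Emp2, 3.72 for Ehd4 and 6.34 for Scarb1. Adjusted p ranged from 2.99e-10 to 1.8e-09. Of these, Emp2 did not pass within Rspo3- cells (104, 86.7 and 92.8 CPM against 73.4, 68.8 and 59.5 CPM, adjusted p = 0.0606).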

How the results depend on the processing

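The main counts were 3823 genes higher, 4109 lower, 949 differing by tissue and 4620 differing by Rspo3 gate. DESeq2 gave 1530 genes for the tissue difference. A test against a log2 change of 1 (edgeR's glmTreat) gave 1414 higher, 2132 lower, 150 by tissue and 1926 by Rspo3 gate. Leaving out 1 library at a time gave 3192 to 3398 higher, 3481 to 3966 lower, 530 to 874 by tissue and 3670 to 4420 by Rspo3 gate, and the lowest tissue count was without the third CD31- Rspo3- library of small intestine. Under the other scalings, filters and fits run, each of these counts stayed within 1.5 times its main value. Of 1344 list counts recomputed 101 moved by more, and of 720 list medians 28 moved, 19 of them on the deposited log2(TPM + 1) scale. The cause was not tested. Of 251 genes named here 205 kept their side of the threshold under every alternative run, 46 lost or gained a call and none changed sign with a call. Sign changes without a call were not counted, such as that of Il1r1 (log2 fold change 0.02 in the main fit and -0.06 in DESeq2). Leaving out 1 library ended the call of 17 and gave one to 7, which are marked beside their values. No paired analysis was possible because the column names carry no replicate number. With 3 libraries a group, a difference that missed the threshold may still exist.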
